A study of Mus musculus with 26 samples.

Results

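Assays B71 to B77 are 7 consecutive positions of a mouse miRNA panel of 315 assays, read by stem-loop RT-qPCR in 26 samples. They were chosen from the measured Ct values, as a run of neighbours with low Ct in pluripotent cells and high or missing Ct in the differentiated cells. A Ct is the PCR cycle at which the signal crosses its threshold, so a lower Ct means more template, and a difference of 1 cycle is a difference of 1 on the log2 scale. That contrast is therefore described below with no test. The panel rows carry positions and not miRNA names, and no source used here pairs them, so each assay is called by its position, no sequence is shown and no function is assigned.

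The samples were 5 induced pluripotent stem cell (iPSC) clones made from tail-tip fibroblasts, 3 samples of the embryonic stem cell (ESC) line D3 and 3 of line R1, and 5 of the parent tail-tip fibroblasts. A further 4 samples were iPSC clones 2 and 3 after 5 days with activin-A, with 2 samples from each clone. Adult primary islets and primary hepatocytes of C57BL/6 mice gave 3 samples each. iPSC and ESC were grown with leukemia inhibitory factor on inactivated mouse embryonic fibroblast feeders, and the labels do not say whether feeder cells were removed before extraction. The treated cells had been taken off the feeders and plated on gelatin in low-serum medium, so the effects of activin-A, medium and feeder removal cannot be told apart. The activin-A dose is 100 ng per ml in the protocol, while the sample characteristics give the same number per microlitre. No genotype, reprogramming factors or animal numbers are given, and except for the clones the labels do not say whether replicates were independent cultures or mice. The p-values therefore reflect the spread among these samples, which may be technical.

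MicroRNAs are short RNAs cut from hairpins that repress messenger RNAs through a short seed at their 5′ end. Several are transcribed together from one primary transcript as a cluster, and mouse pluripotent cells are known for a few abundant clusters of this kind that are silent in most differentiated cells. Stem-loop RT-qPCR reads the mature form with one primer set per miRNA, so the Ct of different assays also depends on each primer set. In a sample of mixed cells, fewer cells of a type and less RNA per cell cannot be told apart.

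Between 187 and 276 of the 315 assays had a Ct below 35 in a sample, and between 241 and 276 in the 15 iPSC, treated iPSC and ESC samples, which are called the pluripotent lineage samples here. The mean Ct of the assays below 35 in every sample was 25.9 to 28.5 in those 15 at plate positions A and B, and 23.2 to 29.9 in the other 11. Very low Ct values occur: 24 of 8190 panel values lie below 14 cycles, 11 of them in hepatocyte replicate 1 and 1 in hepatocyte replicate 3. That last value belongs to B75 and is set out with that assay.

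All 105 values of the 7 assays in the 15 pluripotent lineage samples were below 35. Of their 77 values in fibroblasts, islets and hepatocytes, 42 had no Ct, 19 had a Ct of 35 or above and 16 were below 35. Those 16 were spread over the cell types, with 5 of 35 values in fibroblasts, 4 of 21 in islets and 7 of 21 in hepatocytes. For 5 of the 7 assays every pluripotent lineage Ct was below every other Ct, the exceptions being B75 and B76. This pattern occurred in 13 of the 315 panel assays (4.13%), and since it is what chose the run, the count is a description. Across the panel, 178 assays were below 35 in all 15 samples, and 4 of these were below 35 in none of the other 11. B71 was the only assay of the run among those 4.

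**Figure D1:**
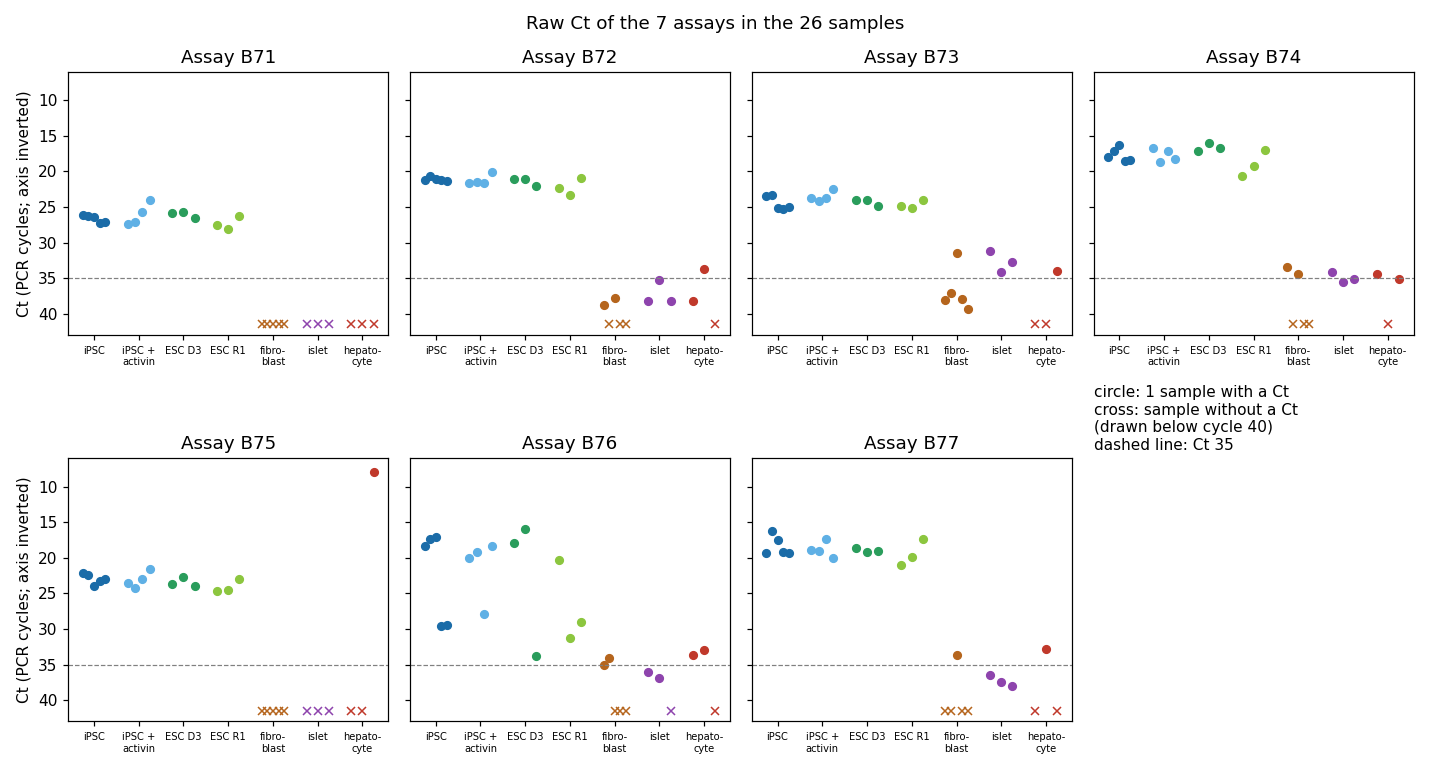
Raw Ct in PCR cycles (vertical axis, inverted so that more template is higher) of each of the 7 assays in every sample, by group. The points of B71, B72, B73, B74 and B77 in iPSC, treated iPSC and ESC all lie above those of the differentiated cells, while B76 spans from 16.0 to 33.8 within them and B75 has a single point at 7.98 in hepatocytes. The dashed line marks the limit of 35, and crosses stand for samples without a Ct.

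B74 had the lowest Ct of the run. It read 17.98, 17.1, 16.2, 18.6 and 18.4 in iPSC replicates 1 to 5. The values were 17.2, 16.0 and 16.6 in D3 and 20.6, 19.3 and 17.0 in R1. D3 thus lay at the low end and R1 reached the highest Ct, with the ranges of the lines overlapping between 17.0 and 17.2. After activin-A, clone 2 read 16.6 and 18.6 and clone 3 read 17.2 and 18.3, against 16.2 to 18.6 in untreated iPSC. In fibroblasts 2 of 5 samples had a Ct, at 33.4 and 34.4. Islets read 34.1, 35.6 and 35.1, and hepatocytes 34.4 and 35.1 with 1 sample without a Ct. The highest pluripotent lineage value, 20.6, was far below the lowest of the others, 33.4. Among all panel assays B74 ranked between place 1 and place 6 by Ct in the 15 samples, with a median of 1.

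B77 was close behind, with a median place of 3 and a range of 2 to 6. Its Ct was 19.3, 16.2, 17.5, 19.2 and 19.4 in the iPSC clones, 18.6, 19.2 and 19.1 in D3, and 21.0, 19.9 and 17.4 in R1. Treated clone 2 read 18.9 and 19.02 and treated clone 3 read 17.3 and 20.04. These groups overlap throughout. Outside them a Ct was read in fibroblast replicate 3 (33.7), in hepatocyte replicate 2 (32.8) and in the 3 islet samples (36.4, 37.4 and 38.1). The lowest of these, 32.8, was well above the highest pluripotent lineage value of 21.0.

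B72 was the evenest of the run in iPSC, at 21.2, 20.7, 21.1, 21.2 and 21.3. D3 read 21.1, 21.0 and 22.01, R1 read 22.4, 23.2 and 21.0, and the treated samples read 21.6 and 21.4 in clone 2 and 21.6 and 20.1 in clone 3. All 15 thus fell between 20.1 and 23.2. The differentiated cells gave 38.7 and 37.8 in 2 of 5 fibroblast samples, 38.2, 35.2 and 38.2 in islets, and 38.2 and 33.8 in 2 of 3 hepatocyte samples. Its median place among the panel assays was 9.

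B73, B75 and B71 had higher Ct in the same cells. B73 ran from 22.5 to 25.2 with a median of 24.1 in the 15 samples. It is the assay of the run that was most often read outside them, with a Ct in all 5 fibroblast samples (38.0, 37.02, 31.4, 38.0 and 39.4), all 3 islet samples (31.2, 34.1 and 32.7) and 1 hepatocyte sample (34.0). Fibroblast replicate 3, at 31.4, had the lowest Ct of the fibroblast samples for B73, and it was also the only fibroblast sample with a Ct for B77. The same sample had the lowest mean Ct of the always-read assays in the series, at 23.2. B71 ran from 24.0 to 28.1 with a median of 26.3 and had no Ct in any of the 11 differentiated samples.

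B75 read 22.2, 22.5, 24.0, 23.2 and 23.0 in iPSC, 23.7, 22.7 and 23.9 in D3, and 24.7, 24.5 and 22.9 in R1. Treated clone 2 read 23.6 and 24.3 and treated clone 3 read 23.0 and 21.5. As with B71, fibroblasts and islets gave no Ct, and neither did hepatocyte replicates 1 and 2. Hepatocyte replicate 3 alone read 7.98, against 21.5 for the lowest pluripotent lineage value. The neighbouring assay B70 also had its lowest value in that sample, at 15.1, against 29.2 or more in every other sample with a Ct. What gave the value of 7.98 was not tested.

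B76 behaved unlike the other 6 assays within the pluripotent lineage. In iPSC it read 18.4, 17.4 and 17.1 in clones 1 to 3 and 29.6 and 29.4 in clones 4 and 5. D3 read 17.9, 16.0 and 33.8, and R1 read 20.3, 31.3 and 29.02. Treated clone 2 read 20.02 and 19.2, and treated clone 3 read 27.9 and 18.4. So 9 samples lay at 20.3 or below and 6 at 27.9 or above, and each of the 4 groups had samples on both sides of a gap of 7.64 cycles. Differentiated samples with a Ct read 35.02 and 34.1 in fibroblasts, 36 and 36.8 in islets, and 33.7 and 32.9 in hepatocytes. D3 replicate 3, at 33.8, therefore overlapped the differentiated cells.

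The other 6 assays gave no such break. In the same 6 samples with high B76, B74 ran between 16.6 and 19.3, inside its range in the 9 others. A gap of more than 5 cycles within the 15 samples, with at least 3 samples on each side and missing values placed at cycle 40, was found for 7 of the 315 panel assays (2.22%). Only B76 and A69 of these had a Ct in all 15. A69, at a position with another letter, was singled out after its values were seen. It read 26.02, 25.5, 24.5, 32.2 and 34.3 in iPSC clones 1 to 5, 27.2, 27.0 and 26.1 in D3, and 27.2, 32.3 and 35.2 in R1. Treated clone 2 read 24.5 and 24.98, and treated clone 3 read 34.6 and 24.5. Its 5 high samples were all among the 6 high samples of B76, and D3 replicate 3 was the exception. The cause of either break was not tested.

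**Figure D2:**
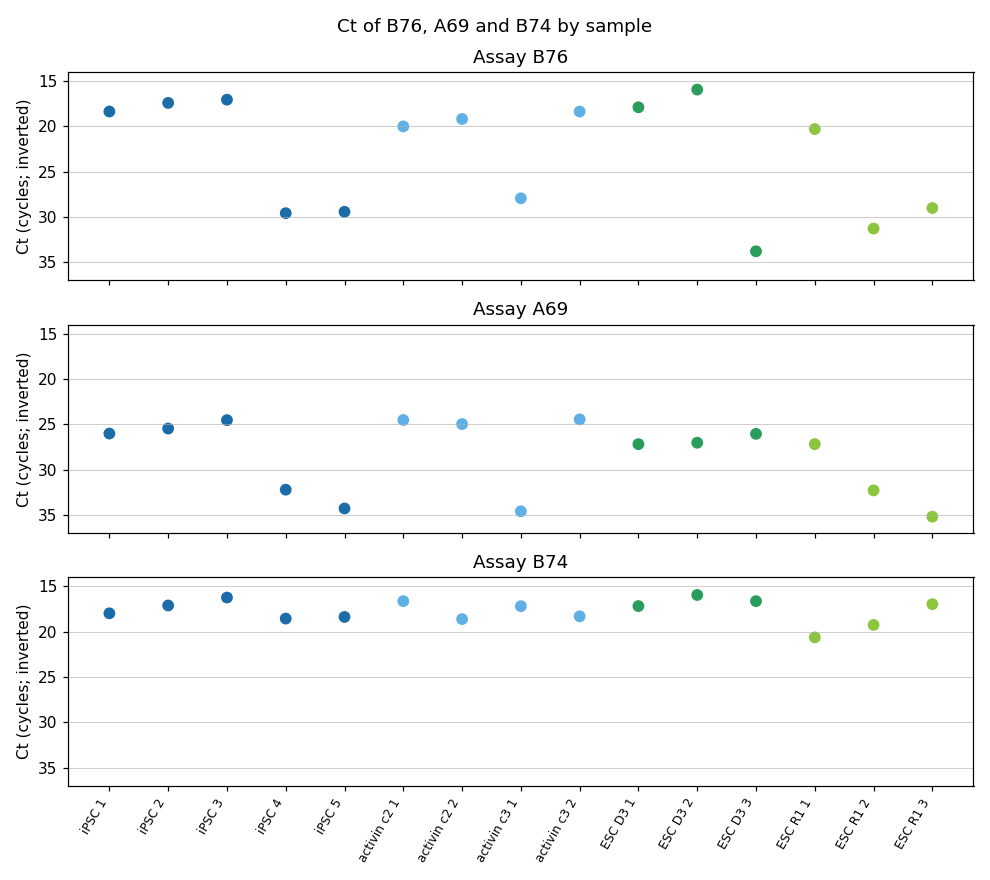
Ct in PCR cycles (vertical axis, inverted) of B76, A69 and B74 in each of the 15 pluripotent lineage samples (horizontal axis, coloured by group). B76 breaks between 20.3 and 27.9 and A69 between 27.2 and 32.2, in 5 shared high samples, while B74 stays between 16.0 and 20.6 in all 15.

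The order of Ct along the run was nearly the same in every pluripotent lineage sample. B74 was the lowest of the run in 13 of 15 samples, with B77 and B76 the lowest in 1 each, and B74 was below B77 in 14. B72 came next, above both B74 and B77 in all 15. B73 and B75 lay between B72 and B71 in all 15, with B73 above B75 in 14. B71 was the highest of the 6 assays other than B76 in all 15. Since primer sets differ, this is an order of readouts and not of RNA amounts.

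Set against the mean Ct of those 6 assays in the same sample, B74 lay at -4.27 ± 0.883 cycles (SD, n = 15) and B77 at -3.18 ± 0.921. B72 lay at -0.595 ± 0.411, B75 at 1.34 ± 0.556, B73 at 2.21 ± 0.575 and B71 at 4.49 ± 0.592. Every step from one assay to the next in this order thus exceeded the SD of either assay. The steps from B74 to B77 and from B75 to B73 did so by the least. B76 stood at 1.07 ± 6.00 and ranged from -5.47 to 11.6. By group, the offset of B74 was -4.19 ± 0.727 in iPSC (n = 5), -5.18 ± 0.560 in D3 (n = 3) and -3.82 ± 0.830 in R1 (n = 3).

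**Figure D3:**
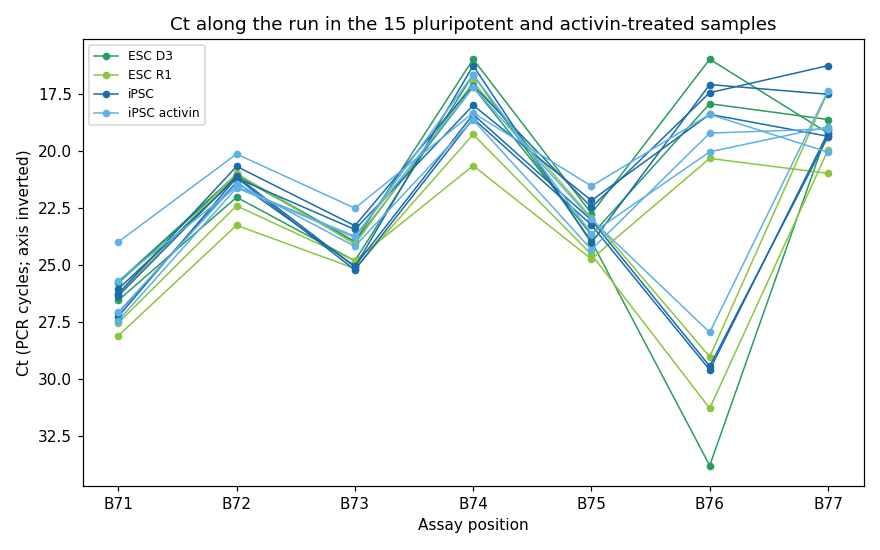
Ct in PCR cycles (vertical axis, inverted) along positions B71 to B77 (horizontal axis), one line per pluripotent lineage sample, coloured by group. The lines keep nearly the same shape from B71 to B75 and at B77, with B74 the highest point in 13 of 15, and part at B76.

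To compare samples, each Ct was subtracted from the mean Ct of the assays read in every sample, giving a log2 relative level. In iPSC the level was 9.85 ± 1.04 for B74 (SD, n = 5), 9.18 ± 1.21 for B77, 6.42 ± 0.58 for B72, 4.52 ± 0.88 for B75, 3.10 ± 1.02 for B73 and 0.90 ± 0.80 for B71. B76 was at 5.12 ± 6.51. The SD of the 6 assays thus lay between 0.58 and 1.21, around the median SD of 0.84 over the 214 assays read in all iPSC and B76 lay far above it. In the 6 ESC samples the median SD was 0.78 over 208 assays, and the run spanned 0.47 for B73 to 1.41 for B74, with B76 at 7.51. Within each assay the levels of iPSC, treated iPSC, D3 and R1 overlapped from each group to the next in order of their means. The mean of the 6 assays ran from 3.57 in a treated clone 2 sample to 6.30 in iPSC replicate 1.

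Over the 15 samples the 6 assays' levels correlated pairwise with Pearson's r from 0.24 for B73 and B74 to 0.82 for B72 and B75, with a median of 0.50 over 15 pairs. As read from these values, B71, B72, B73 and B75 correlated with each other at 0.58 to 0.82 and B74 with B77 at 0.68, against 0.24 to 0.50 between those sets. Among 114 other assays at plate positions A and B, 6441 pairs had a median r of -0.0048. These include the 87 assays whose mean Ct is the reference, which by itself pulls their r towards 0. Their median is therefore no baseline for that of the run. These values are descriptive: the points share the reference and the RNA sample, and cover several groups.

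The first comparison asks whether iPSC carry the run at the level of ESC. For none of the 7 assays was a difference called. The iPSC minus ESC difference was 0.05 for B74 (log2, 95% interval -1.59 to 1.70), -0.01 for B71 (-1.73 to 1.71) and -0.01 for B73 (-1.47 to 1.46). It was 0.63 for B72 (-1.06 to 2.32) and 0.81 for B77 (-0.96 to 2.58). For B76 it was 2.27 (-3.82 to 8.36) and for B75 0.71 (-5.85 to 7.28). The intervals of the first 5 exclude differences beyond 2.58 in either direction, and they do not show that the levels are equal. In limma's test (Benjamini-Hochberg adjustment) 0 of the 273 tested assays passed (0.0%), with 20 at an unadjusted p under 0.05, none of them in the run. The smallest adjusted p in the panel was 0.134 and that of the 7 assays was 0.996 each. The median difference was 0.63 over the run and 0.06 over all tested assays.

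The wide interval of B75 goes with the value of 7.98 in hepatocytes, which enters the spread pooled over all groups. Its standard error was 3.15 with that value, 0.83 with it set to the limit, and 0.52 with only iPSC and ESC in the fit, at the same difference of 0.71. For B76 the difference turned to -0.58 without D3 replicate 3, and reached 4.19 at most when another sample was left out.

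The ESC lines D3 and R1 were compared in the same fit. The D3 minus R1 difference was 1.55 for B74 (log2, 95% interval -0.67 to 3.77), with 0.73 without R1 replicate 1 and 2.27 without R1 replicate 3, and D3 was higher than R1 in mean by 3.51 for B76 (-4.72 to 11.73). It was 0.47 for B71, 0.03 for B72, -0.38 for B73, -0.20 for B75 and -0.34 for B77. None of the 273 tested assays passed in limma's test (0.0%), and 3 had an unadjusted p under 0.05, none of the run. The difference of B76 was 0.06 without D3 replicate 2 and 9.20 without D3 replicate 3, the lowest and highest over the fits that left out 1 sample.

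Activin-A is used to drive pluripotent cells toward endoderm, and the third comparison sets the treated clones against untreated iPSC. Here the reference was U6 small nuclear RNA (RNU6), the one the labels name. No assay of the run differed beyond its error. The treated minus untreated difference was 0.86 for B71 (log2, 95% interval -2.53 to 4.26), 0.22 for B72 (-3.09 to 3.52), 1.16 for B73 (-2.05 to 4.37), 0.27 for B74 (-2.90 to 3.45) and -0.20 for B77 (-3.53 to 3.12). It was 1.30 for B76 (-5.21 to 7.81) and 0.18 for B75 (-9.26 to 9.61). The standard error of B75 was 4.49 with the hepatocyte value of 7.98 in the pooled spread and 0.80 with only the groups compared in the fit. Of 284 tested assays 0 passed in limma's test (0.0%), with 35 at an unadjusted p under 0.05, none of the run, and a smallest adjusted p of 0.0765. The median difference over all tested assays was 1.68, and that of the run was 0.27.

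For 6 of the 7 assays the sign of the difference rests on the reference, B77 being negative with both. RNU6 was 0.31 cycles higher in treated cells, whereas the mean Ct of the always-read assays changed by -1.21 cycles. Relative to that mean Ct the 7 differences were all negative, at -0.65 for B71, -1.30 for B72, -0.35 for B73, -1.24 for B74, -1.34 for B75, -0.22 for B76 and -1.72 for B77, and the median over all tested assays was -0.11. No assay of the run passed on either scale. RNU6 was recovered from the authors' deposited table, so its values for these assays equal those given with RNU6 by construction.

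The treated samples were also set against their own clone in raw Ct, where each had a single untreated sample and a positive change means a lower Ct after treatment. B73 changed by -0.51 and -0.90 cycles in the treated samples of clone 2 and by 1.35 and 2.58 in those of clone 3. B75 changed by -1.15 and -1.85 in clone 2 and by 1.03 and 2.49 in clone 3. In raw Ct, B71, B73 and B75 thus had opposite signs in the clones. B77 changed by -2.68 and -2.78 in clone 2 and by 0.15 and -2.54 in clone 3. Relative to RNU6 the treated samples of clone 2 differed in sign from each other for B73, at 1.19 and -1.73. Clone 3 gave 2.04 and 2.50 for B73. The treated samples of clone 2 also differed in sign for B71 (0.51 and -1.64) and B75 (0.55 and -2.67). RNU6 itself, up to a constant, was 0.96 and -1.57 in those samples of clone 2. In raw Ct and relative to the mean Ct, B71, B73 and B75 were negative in both of them. Relative to the mean Ct, B73 and B75 kept opposite signs in the clones, while clone 3 gave -0.19 and 0.57 for B71. On that scale B72 was lower in all 4 treated samples, at -1.24 and -1.56 in clone 2 and -1.32 and -0.82 in clone 3. So was B77, at -2.98 and -3.58 in clone 2 and -0.71 and -4.34 in clone 3. B74 was lower in all but the first treated sample of clone 2, at 0.19. Relative to RNU6 the signs of B72, B74 and B77 were mixed. B76 was lower than in its own untreated clone in all 4 treated samples, by raw changes of -2.60 and -1.77 in clone 2 and -10.88 and -1.31 in clone 3, and relative to RNU6 by -0.90, -2.60, -10.19 and -1.38. With the clone as a block its difference was -3.77 (SE 2.37, limma adjusted p = 0.768), against 1.30 when all 5 untreated clones, 2 of them with high B76, were averaged. The block moved B77 from -0.20 to -1.59 and B74 from 0.27 to -0.64. The difference between clones was not tested.

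**Figure D4:**
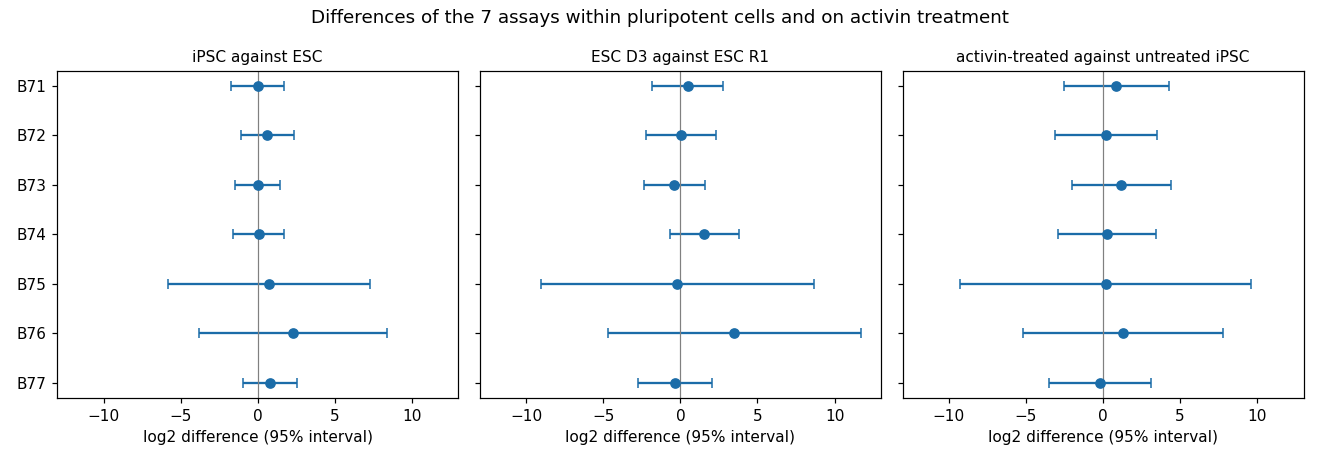
Log2 differences of the 7 assays (points) with 95% intervals (bars) from limma, for iPSC against ESC, D3 against R1 and treated against untreated iPSC. Every interval includes 0, and those of B75 and B76 are the widest in all 3 comparisons.

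Hepatocytes and islets were compared relative to RNU6. Only B73 and B76 had a Ct below 35 in at least 50% of either group and were tested. B73 passed that filter through the islets alone, with a Ct of 31.2, 34.1 and 32.7 there and of 34.0 in 1 of 3 hepatocyte samples. Its hepatocyte minus islet difference was -4.41 (log2, 95% interval -7.53 to -1.29), with 2 hepatocyte samples set to the limit of 35. An assay that enters only through its higher group tends to differ, so its place among the calls is not read as a result. In this comparison limma called 121 of 276 tested assays (43.8%), 117 of them lower in hepatocytes, with a median difference of -3.42. RNU6 itself differed by -2.38 cycles between hepatocytes and islets, and relative to the mean Ct the difference of B73 was -1.20. Up to a constant, RNU6 was -0.07, -0.76 and 4.40 in islets and 0.13, -1.91 and -1.79 in hepatocytes, with islet replicate 3 apart. Without that replicate the difference relative to RNU6 was -2.82 for B73, and the panel median was -2.20. B76 passed through the hepatocytes alone and differed by -1.24 (-7.51 to 5.04), with all 3 islet samples set to the limit of 35. Its sign rests on the reference, although only hepatocytes read it below 35, at 33.7 and 32.9. Relative to the mean Ct the difference of B76 was 1.98, and relative to RNU6 without islet replicate 3 it was 0.37.

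Against fibroblasts the authors' deposited table gives iPSC minus fibroblast differences in normalized Ct of -17.94 for B72, -17.01 for B74 and -16.88 for B77, a negative value meaning more RNA in iPSC. They are -10.56 for B73 and -10.09 for B76, and the table holds no value for B71 and B75, which no fibroblast sample read. The fibroblast means cover only samples with a Ct. Those were 2 of 5 for B72, B74 and B76, 1 for B77 and all 5 for B73. For B72 both Ct values, 38.7 and 37.8, lay above 35. These contrasts chose the run and are given as values.

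At the ends of the run, B70 did not have the pattern and B78 had it in weaker form. B70 read 29.6 to 34.6 in the 14 pluripotent lineage samples with a Ct, against 29.2 to 34.9 in the other samples with a Ct apart from the 15.1 of hepatocyte replicate 3. B78 read 26.4 to 33.0 in the pluripotent lineage and 29.8 to 39.2 in the differentiated samples, so that its ranges overlapped. Its mean log2 level relative to the mean Ct was -2.01 in the pluripotent lineage and -7.21 in the differentiated samples. The assays outside the run whose level over the 26 samples was most like the mean of the 7 were C64 (Pearson's r = 0.97), B45 (0.95), A74 (0.93), B04 (0.92) and C51 (0.92). B78 stood at place 7 and B70 at place 161 of 308. The samples fall into 2 clusters, the pluripotent lineage and the rest, so these values mainly order assays by that split and carry no test. C64 came closest in Ct too, at 20.1 to 28.0 in the pluripotent lineage and 34.9 to 39.2 in the 8 other samples with a Ct. The other 4 had a Ct below 35 in all 11 differentiated samples.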

How the data were processed

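The deposited table holds raw Ct values from the authors' TaqMan stem-loop RT-qPCR, which used 5 ng of total RNA and 40 cycles per the labels' protocols, with no normalization; it was used as a unit of its own, PCR cycles. The authors' deposited comparisons are log2 values, each a mean normalized Ct of one group less that of the other, with positive values for less RNA in the group named first. The Ct software is not given in the sources used here. Least squares on both tables recovered RNU6, up to a constant, in 20 samples. ESC comparisons used the mean Ct of assays below 35 in all 26 samples (87 at positions A and B, 26 at C, 9 at D).

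Log2 relative expression is reference Ct minus assay Ct, with higher or missing Ct set to 35. Assays read below 35 in 50% of either group were tested. Treated samples of a clone were averaged. limma 3.58.1 (lmFit and eBayes, R 4.3.3) fitted all groups sharing the reference, with two-sided p-values, Benjamini-Hochberg adjustment over all tested assays and a threshold of 0.05. The fit and the recovery were tested on simulated data. Tables and plots used Python 3.11.15, numpy 2.4.6, pandas 2.3.3 and matplotlib 3.10.9. The labels do not say which replicates, if any, were technical, so the precision of a single Ct is unknown.

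The 7 assays, and the rule for naming others (the run, its neighbours B70 and B78, and the 5 assays most correlated with the run's mean), were chosen with earlier results of these data known. A69 was added after its values were seen. The labels tie each treated sample to its clone. Same-numbered samples of the other groups did not deviate together (r from -0.285 to 0.194), so those numbers were not taken as pairs. Alternatives covered the limit, missing values, normalization, filter, samples in the fit, reference, a replicate block and each sample left out.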

Additional observations from a re-analysis of the deposited data

Results flagged for a closer look

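B76 in treated clone 3, replicate 1, stood at a log2 level of -1.15 relative to the mean Ct, while the other 3 treated samples lay between 6.49 and 7.48. Its gap to the nearest of them was 0.886 of the group's range, above Dixon's 95% critical value. It was the only such sample in 21 tests of the 7 assays over the groups of 4 to 10 samples. For independent samples from a single normal population, chance flags about 1 in 20. The treated samples come in pairs from the same clone, and B76 broke into low and high samples across the pluripotent lineage. That rate therefore need not hold here. The flagged Ct of 27.9 lies with the 5 other high samples of B76, and A69 was also high in that sample, at 34.6.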

How the results depend on the processing

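Of 366 differences of the 7 assays recomputed under the alternatives, 302 kept direction and side of the threshold, 56 changed sign, none of them called, and 8, all of B73 between hepatocytes and islets, kept direction and lost the call. The call of B73, kept or lost, is not read as a result, since B73 entered that test through the islets alone. No assay of the run was called in iPSC against ESC, D3 against R1 or activin under any alternative. In hepatocytes against islets the run had 0 calls with the limit at 32, missing values left missing, quantile normalization, only the groups compared, or the mean Ct. It also had 0 with a Ct below 35 in every sample, where no assay of the run was tested, and 0 to 1 when a sample was left out; the 1 without hepatocyte replicate 2 was B75, which rests on the single Ct of 7.98. Panel calls became 73 with quantile normalization, 58 with a Ct below 35 in every sample, 69 with only the groups compared, and 80 to 142 when a sample was left out (80 without islet replicate 3). For activin they became 1 with quantile normalization, 3 with a Ct below 35 in every sample, 1 with the mean Ct and 0 to 4 when a sample was left out (4 without the second treated sample of clone 3). For iPSC against ESC they became 2 with quantile normalization and 1 with only the groups compared. The cause was not tested.

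With the replicate block the run had 0, 0, 0 and 1 calls in iPSC against ESC, D3 against R1, activin and hepatocytes against islets. The panel had 127 in the last, and no call of the run changed. In iPSC against ESC the block joins samples by number alone, and neither ESC line has a replicate 4 or 5. iPSC clones 4 and 5, with B76 at 29.6 and 29.4, therefore did not enter the block's differences. Those set clones 1 to 3 against ESC. Signs changed under the block for B71 (0.36) and B73 (0.45) in iPSC against ESC, and for B74 (-0.64) and B76 (-3.77) in activin, where it pairs the clones. The block also moved B76 from 2.27 to 7.01 (limma adjusted p = 0.432) and B77 from 0.81 to 1.42 in iPSC against ESC, and B77 from -0.20 to -1.59 in activin. With quantile normalization they changed for B74 (-0.54) in iPSC against ESC, B75 (0.10) in D3 against R1, B71 (-0.62), B72 (-1.26), B73 (-0.22), B74 (-2.14) and B75 (-1.16) in activin, where the panel median was -0.0029, and B73 (0.12) and B76 (2.92) in hepatocytes against islets. With the mean Ct they changed for the panel median (-0.11), B71 (-0.65), B72 (-1.30), B73 (-0.35), B74 (-1.24), B75 (-1.34) and B76 (-0.22) in activin, and for B76 (1.98) in hepatocytes against islets.

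When 1 sample was left out, iPSC against ESC ran from -0.27 to 0.27 for B71, -0.37 to 0.30 for B73, -0.36 to 0.42 for B74 and -0.58 to 4.19 for B76, with a panel median of -0.017 to 0.12. D3 against R1 ran from -0.30 to 0.43 for B72, 0.73 to 2.27 for B74, -0.72 to 0.12 for B75 and -1.09 to 0.41 for B77. Activin ran from -0.37 to 0.80 for B72, -0.85 to 1.40 for B74, -0.63 to 0.98 for B75, -0.90 to 3.50 for B76 and -1.07 to 0.66 for B77. B76 in hepatocytes against islets ran from -2.21 to 0.37. Of the 5 assays most like the run, 4 remained at a limit of 32, 2 by Spearman's correlation, and 4 without B75 and B76 in the mean, a setting chosen after their values were seen, as was B75 of hepatocyte replicate 3 set to the limit.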
